A study of Homo sapiens with 24 samples.

Results

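Tandem acceptor sites are pairs of 3′ splice sites that lie 3 bases apart at the end of the same intron, and 1334 such pairs were described here. They were selected on measured values: both acceptors were joined to the same 5′ splice site, the 2 junctions together took a mean of 50% or more of that site's reads over the 12 DMSO samples, the less used acceptor took a mean of 1% or more, and the site had reads in all 24 samples. The pairs belonged to 1332 5′ splice sites in 1162 genes, and 153 genes held 2 or more of them. Among all pairs of acceptors that shared a 5′ splice site and met the same thresholds at any distance, 37364 in number, they made up 3.57%. The sum and the minor percentage in DMSO are therefore properties of the selection and are not results.

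An intron ends in AG, and the second step of splicing normally joins the exon to the first usable AG downstream of the branch point. Where a second AG follows directly, as in the sequence NAGNAG, either can be taken, and the mRNAs differ by a single NAG triplet, usually a codon. The branch point is recognised earlier by the U2 snRNP through its SF3b complex, in which PHF5A and SF3B1 line the pocket for the branch point adenosine. E7107, a derivative of pladienolide, binds in that pocket and inhibits splicing. The choice between tandem acceptors is made after the branch point has been bound, by sites that share 1 intron and usually 1 branch point.

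The samples came from HCT-116, a colorectal carcinoma cell line. Parental cells were transduced with lentivirus carrying cDNA of WT or Y36C PHF5A and kept as selected pools, so that the endogenous PHF5A was still present in every group. Cells of each genotype received DMSO or E7107 for 6 h, the labels gave no dose, and polyA RNA of 6 samples in each of the 4 groups was sequenced. Nothing in the labels says that the 6 samples of a group were separate cultures, so p-values measure only the spread between these samples, which may be technical. The files hold percentages of reads without counts or expression levels, so the read depth at each site is unknown, no interval could be given for a single percentage, and neither cell markers nor the PHF5A variant could be checked. Of 636130 splice sites listed, 336249 to 340081 had reads in the DMSO samples, 281164 to 283548 in WT E7107 and 328458 to 331604 in Y36C E7107.

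The percent spliced in (PSI) of a junction is its percentage of all reads at the 5′ splice site. The quantity followed below is the upstream share: the PSI of the upstream acceptor, the one nearer the branch point, as a percentage of the sum for the pair. A share of 100% means that only the upstream acceptor was used, which leaves the second NAG in the mRNA. A boundary row gives the percentage of reads at a splice site that cross unspliced from exon to intron. The share does not count those reads, so retention of the whole intron does not enter it directly.

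All 1334 pairs read NAGNAG on the transcribed strand, which follows from introns that end in AG at acceptors 3 bases apart. Distances of 3 bases were the most frequent spacing by far, with 1334 pairs against 438 at 4 bases, 253 at 5 and 163 at 6. CAGCAG was the most common sequence with 470 pairs, followed by CAGAAG with 226, TAGCAG with 196, TAGAAG with 117 and AAGCAG with 107. Of the pairs, 1158 lay in coding sequence, 134 in 5′ UTRs, 12 in 3′ UTRs and 26 in noncoding transcripts. The other 4 had neither junction in the annotation and were given no location. The annotation held the junctions to both acceptors at 715 pairs, only to the upstream one at 513, only to the downstream one at 102 and to neither at 4.

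Examples of the sequence are shown for the pairs on which the results below turn, read from the GRCh37 genome 5′ to 3′ on the transcribed strand, with the 6 tandem bases in capitals. NARS1 (exon 2, chr18:55287872-55287916, minus strand) and METAP2 (exon 2, chr12:95869814-95869858, plus) carry CAGCAG. TIMM44 (exon 5, chr19:7999115-7999159, minus) carries CAGTAG. REV1 (exon 9, chr2:100046399-100046443, minus) has AAGCAG, SCAF4 (exon 8, chr21:33069052-33069096, minus) CAGAAG, WAC (exon 12, chr10:28905069-28905113, plus) TAGTAG and SMIM26 (exon 2, chr20:18549847-18549891, plus) AAGTAG. ARID1A (exon 6, chr1:27087839-27087883, plus) has GAGCAG. SFPQ, whose pair lies in a 3′ UTR (exon 6, chr1:35642073-35642102, minus), has TAGCAG and is shown up to the second acceptor.
NARS1: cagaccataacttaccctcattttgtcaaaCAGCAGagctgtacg
METAP2: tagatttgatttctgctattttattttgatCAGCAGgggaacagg
TIMM44: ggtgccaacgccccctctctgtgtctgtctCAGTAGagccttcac
REV1: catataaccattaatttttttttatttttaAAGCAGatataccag
SCAF4: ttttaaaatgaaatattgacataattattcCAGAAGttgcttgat
WAC: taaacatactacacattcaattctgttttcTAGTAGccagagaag
SMIM26: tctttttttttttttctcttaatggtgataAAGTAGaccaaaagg
ARID1A: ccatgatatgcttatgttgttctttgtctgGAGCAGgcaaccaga
SFPQ: tttggagtaatcataccctttaatTAGCAG

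The upstream acceptor was the major one at 1017 pairs by the DMSO mean, and the downstream acceptor at 317. The median upstream share in DMSO was 87.1%. Of the pairs, 449 lay between 95% and 100% and 63 below 5%, while 119 lay between 40% and 60%. The spread between samples was small beside this range, with a median SD of 3.32 percentage points in WT DMSO and 3.36 in Y36C DMSO.

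**Figure D1:**
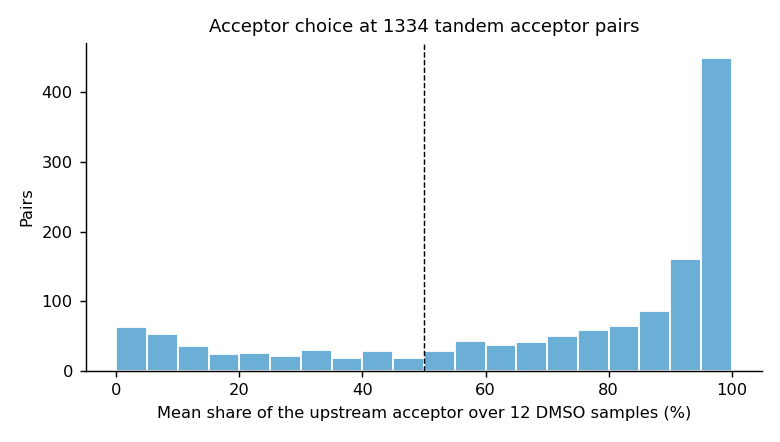
Number of tandem acceptor pairs (y axis) by the mean upstream share over the 12 DMSO samples (x axis, %, bins of 5 points), with a dashed line at 50%. The tallest bar, from 95% to 100%, holds 449 pairs, and the downstream acceptor is the major one in the 317 pairs on the left of the line.

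The first base of each triplet went with the share. Where the downstream triplet was AAG or GAG, the upstream acceptor was nearly always the major one: it was at 355 of 369 pairs with AAG, with a median share of 97.0%, and at 47 of 50 with GAG, with a median of 97.6%. Where the upstream triplet was AAG or GAG, it mostly was not: 62 of 159 pairs with AAG had a major upstream acceptor, with a median share of 31.4%, and 5 of 25 with GAG, with a median of 4.21%. With C or T at both places, CAGCAG had a median of 76.4%, with quartiles of 42.5% and 93.4%, and TAGCAG a median of 79.5%, with quartiles of 53.7% and 91.9%. The median was 88.3% at the 68 pairs with CAGTAG and 90.8% at the 34 with TAGTAG. These medians hardly moved between groups: for CAGCAG they were 76.5% and 78.5% in WT cells with DMSO and E7107 and 76.5% and 77.0% in Y36C cells, and for AAGCAG 24.1% and 21.7% in WT and 23.8% and 22.2% in Y36C. Members differ here in gene, depth and position besides the triplet, so these figures are descriptions.

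In coding sequence the reading frame also went with the share where the downstream triplet was TAG. With the intron between codons (phase 0), a mRNA from the upstream acceptor then holds TAG as a stop codon. There were 12 such pairs, and 10 of them had a DMSO share under 10%, with a median of 5.52% over the 12. The same triplet out of frame gave medians of 83.5% at 53 pairs of phase 1 and 86.6% at 37 pairs of phase 2. Limited to pairs with CAG or TAG upstream, the median was 5.55% at the 9 in frame and 92.1% at the 70 out of frame. The in-frame pairs included ERCC2, a DNA helicase of repair and transcription, at 1.28%, ADAM15, a membrane metalloprotease, at 1.95%, the nuclease AEN at 2.88%, the copper chaperone SCO1 at 3.29% and TIMM44, a subunit of the mitochondrial import motor, at 6.28%. The exceptions were ADAMTSL5 at 49.5% and LYST at 63%. LYST was not tested in WT cells, for lack of spliced reads in some samples, and its share had an SD of 33.5 points in WT DMSO.

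A second readout of the same pairs came from the boundary rows at both acceptors. At the upstream acceptor the median boundary PSI was 2.60% in WT DMSO, while at the downstream acceptor it was 88.5%, and the downstream value was the higher one at 1164 of 1275 pairs. It followed the upstream share: its median was 9.29% at pairs with a share under 10%, 37.2% from 10% to 50%, 80.2% from 50% to 90% and 96.6% at 90% or more. Over the 1275 pairs the 2 quantities had a Pearson r of 0.981 and a median absolute gap of 2.62 points, both from the same libraries and partly the same reads, since a read spliced to the upstream acceptor also spans the downstream boundary. In WT E7107 the r was 0.880 over 1170 pairs, and the median gap 4.71 points. Retention of these introns was therefore read at the shared 5′ splice site.

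**Figure D2:**
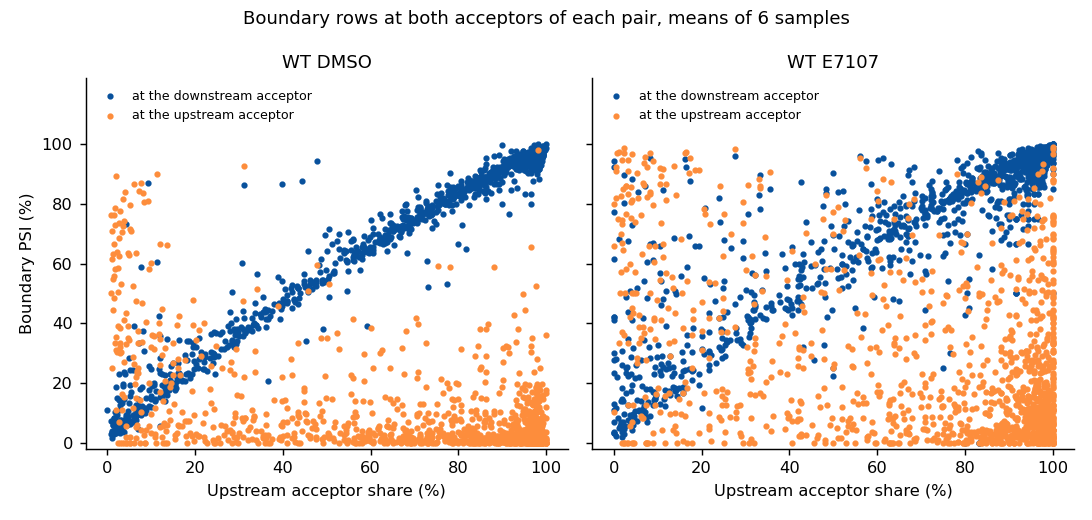
Boundary PSI (y axis, %) at the downstream (blue) and upstream (orange) acceptor against the upstream share (x axis, %), each point the mean of 6 samples of a pair, in WT DMSO and WT E7107. The blue points follow the share in DMSO (Pearson r of 0.981 over 1275 pairs) and scatter more in E7107 (0.880 over 1170 pairs), and many orange points rise in E7107.

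Retention of these introns was highest in WT cells with E7107. Over the 5′ splice sites with reads, the mean boundary PSI in a sample was 4.2% ± 0.165 (SD, n = 6) in WT DMSO and 19.2% ± 1.09 in WT E7107, against 4.06% ± 0.190 in Y36C DMSO and 6.45% ± 0.186 in Y36C E7107. Every WT E7107 sample, at 17.3% to 20.5%, lay above every sample of the other groups, the highest of which was at 6.68%. The mean boundary PSI was over 10 points higher with E7107 than with DMSO at 558 of 1300 sites in WT cells and at 102 in Y36C cells. No such count over all 5′ splice sites is given here, so these numbers do not set tandem pairs apart from other introns. These differences from DMSO are given without a test, because the rule's minimum for the pair in DMSO limits how high a boundary PSI could be there.

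Y36C and WT cells under E7107 were compared on samples that the rule did not use for its thresholds. Of 1300 member sites, 734 passed the filter of a PSI above 0 in all 6 samples of a group. By limma, fitted to log odds of the boundary PSI, at an adjusted p of 0.05 or less, 484 of them were lower in Y36C and 90 were higher. Among the boundaries at all 5′ splice sites, 64.4% were called lower and 10.9% higher, so the member sites, at 65.9% and 12.3%, were close to that background. A site could pass the filter through the group in which it was high. Without the filter, 542 of 1300 were lower and 86 higher, beside 38.2% lower and 5.78% higher of 102380 boundaries at all 5′ splice sites. The largest differences downward were at RBM33, an RNA-binding protein, from a mean of 93.6% ± 2.67 in WT E7107 to 2.45% ± 2.37 in Y36C E7107, at PPAN, a ribosome biogenesis factor that shares its intron with the PPAN-P2RY11 readthrough gene, from 98.5% ± 1.16 to 7.81% ± 1.16, and at BRPF1, a scaffold of a histone acetyltransferase complex, from 92.2% ± 5.13 to 3.25% ± 1.36 (SD, n = 6 each). Upward, ENSG00000285725 went from 4.54% ± 8.89 to 54.3% ± 12.2, LAT from 12.5% ± 30.6 to 57.3% ± 17.6 and ENSG00000256673 from 8.33% ± 20.4 to 52.6% ± 11.4. In WT E7107, most samples of those 3 sites were at 0.

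Beside that difference in retention, the share of the 2 acceptors differed little between the groups. The median upstream share over the pairs in WT cells was 87.3% ± 0.237 with DMSO and 88.5% ± 1.06 with E7107, and in Y36C cells 87.3% ± 0.327 and 87.4% ± 0.567 (SD, n = 6 samples). The median absolute difference in mean share at a pair was 1.87 points between WT E7107 and WT DMSO, 1.44 between the Y36C groups and 1.34 between the 2 DMSO groups. Between the WT groups it was 2.10 points for all acceptor pairs and 1.56 for those 4 to 50 bases apart. At 1029 of 1308 pairs (78.7%) the WT groups differed by 5 points or less. The figure was 75.4% for all acceptor pairs and 85.9% for those 4 to 50 bases apart. A difference of over 10 points was seen at 107 pairs in WT cells, at 47 in Y36C cells and at 51 between the DMSO groups. The spread between samples was also higher in WT E7107, with a median SD of 5.32 points against 3.39 in Y36C E7107. The share of pairs whose minor acceptor was at exactly 0 in a sample was 15.1% ± 0.806 with DMSO and 35.8% ± 1.28 with E7107 in WT cells, and 14.6% ± 0.653 and 19.9% ± 0.960 in Y36C cells. Fewer spliced reads and a true loss of the minor acceptor cannot be told apart in percentages.

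**Figure D3:**
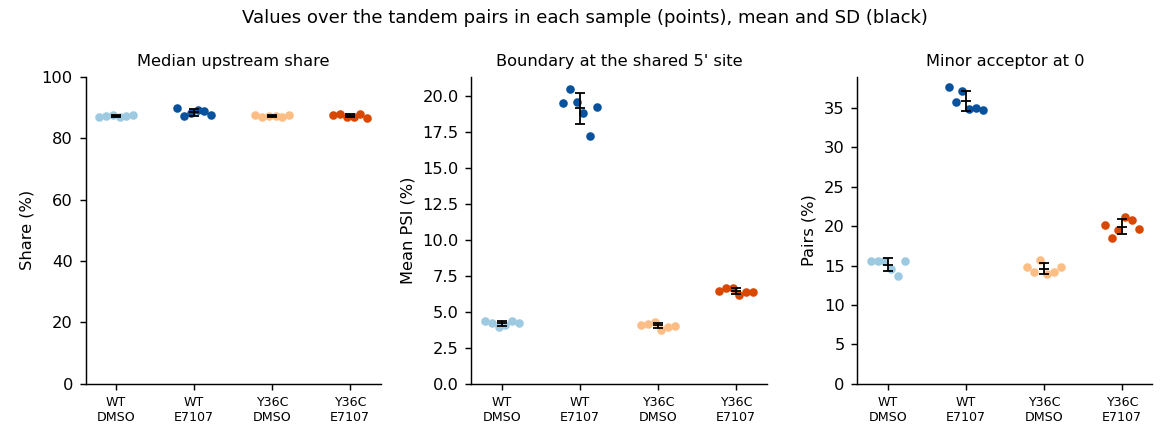
Median upstream share (%), mean boundary PSI at the shared 5′ splice site (%) and percentage of pairs with the minor acceptor at 0, in each of the 24 samples (points), with the mean and SD of each group (black). The share stays between 86.7% and 90% in every sample, while the 6 WT E7107 samples stand apart in the other 2 panels.

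The comparisons of E7107 with DMSO use as controls the DMSO samples on which the rule set its minimum for the minor acceptor. In WT cells, the upstream share was called different between E7107 and DMSO at 52 of 1308 pairs tested, 38 up and 14 down (limma on the log odds of the share, adjusted p of 0.05 or less over all acceptor pairs). That is 3.98% of the tandem pairs, against 10.4% of 35973 acceptor pairs at any distance (4% up and 6.4% down), 7.38% of those 4 to 50 bases apart and 11.0% of those over 50 bases apart. At an unadjusted p under 0.05 there were 171 of the 1308 tandem pairs, beside 8883 of all 35973 acceptor pairs. At 48 of the 52 the acceptor that was minor in DMSO had the lower share under E7107, a direction that the rule's minimum for the minor acceptor in DMSO fixes in part. At 28 of the 52 the minor acceptor was at 0 in all 6 WT E7107 samples, as it was at 145 of the 1308 tested, and 26 of the 52 differed by under 5 points. The called pairs had a median sum of 59.1% in WT E7107, against 87.0% for all tested, and a median boundary PSI of 33.9% against 9.94%. With the minor acceptor required above 0 in 3 or more samples of each group, a condition chosen after seeing the data, 5 pairs were higher and 5 lower of 887 tested.

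The calls also went with the size of the retention. Of 564 pairs whose boundary PSI rose by under 5 points in WT cells, 9 were called (1.60%), of 371 with a rise of 5 to 20 points 9 (2.43%), of 181 with 20 to 40 points 15 (8.29%) and of 160 with more 18 (11.3%). The median absolute difference in share went from 1.60 points in the first set to 2.74 in the last, and the median SD among WT E7107 samples from 4.35 to 6.70. The part of the spread and of the sum in these calls was not tested.

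Of the 52 called pairs, 14 had no overlap between the WT groups, beside 2123 of the 3742 called over all acceptor pairs. Among the pairs with the largest differences and no overlap between the WT groups, 5 were higher under E7107. SFPQ, a splicing factor of paraspeckles, had shares of 60.9% to 68.0% in WT DMSO (median 65.7%) and of 72.7% to 86.4% in WT E7107 (median 78.0%), so that all 6 treated samples were above all 6 controls. The difference was 14 points, or 0.71 ± 0.14 (SE) in log odds, with an adjusted p of 0.00715 by limma. This was the largest of the 5, and both acceptors of SFPQ were seen in every sample. The pair lies in the 3′ UTR, and its boundary PSI was 61.5% ± 5.16 in WT E7107.

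The other 4 had an upstream share of exactly 100% in all 6 WT E7107 samples. In WT DMSO, the share ranged from 90.2% to 97.4% at MYSM1, a histone H2A deubiquitinase, from 89.5% to 98.2% at TNS4, a tensin of focal adhesions, from 92.6% to 98.5% at SCAF4, which binds RNA polymerase II, and from 94.3% to 98.9% at IWS1, a transcription elongation factor. The adjusted p by limma was 4.62e-05, 0.000139, 0.000133 and 0.000491 in that order. These differences were 3.08 to 6.81 points in size. With every WT E7107 sample at 100%, that group had no spread, and the p-values rest mainly on the spread in WT DMSO. The rule also used those DMSO samples, and its minimum for the minor acceptor there favours this direction. The sum for the SCAF4 pair was a mean of 24.8% in WT E7107. The WT E7107 sum ranged from 44.4% to 100% at MYSM1, from 50% to 100% at TNS4 and from 48.1% to 64% at IWS1.

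Downward, REV1, a DNA polymerase of translesion synthesis, differed most. Its upstream share in the 6 WT DMSO samples was 69.0%, 35.3%, 74.3%, 55.2%, 60% and 33.3%, and in WT E7107 it was 0% in 5 samples and 20% in 1. The groups did not overlap, and the difference of 51.2 points in the mean had an adjusted p of 0.000592 by limma. In Y36C cells the share ranged from 30% to 62.5% in DMSO and from 36.8% to 66.7% in E7107. In WT E7107 the sum for the pair was 50%, 50%, 100%, 37.5%, 50% and 100%, and the boundary PSI was 27.1% ± 30. Such simple fractions are of the kind that few reads give, but the number of reads behind these shares is unknown.

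TIMM44, with TAG in frame, was measured with a sum of 90.3% or more in every sample. Its upstream share was 7.23%, 6.83%, 4.62%, 6.82%, 7.33% and 5.04% in WT DMSO and 0%, 1.14%, 1.05%, 0%, 0% and 1.28% in WT E7107. No sample of one group reached the other, and the adjusted p by limma was 0.000155. In Y36C E7107 the share was 8.0% to 10.7%, above all WT E7107 samples. Of the 11 in-frame TAG pairs tested in WT cells, 4 were lower under E7107, namely TIMM44, ADAM15, AEN and SCO1, and none was higher. Over all tandem pairs 14 of 1308 were lower, but the upstream acceptor was the major one in DMSO at 1017 of the 1334 members. The 2 counts are therefore not a like comparison. In these 4 pairs the upstream acceptor was the minor one, and the rule's minimum for it in DMSO favours a fall. AEN had a share of 2.76% ± 1.88 in WT DMSO and of 0% in all WT E7107 samples, ADAM15 went from 1.65% ± 0.807 to 0.407% ± 0.283 and SCO1 from 3.39% ± 1.71 to 0.595% ± 0.923 (SD, n = 6 each). In Y36C cells none of the 11 was called in either direction. The adjusted p of ADAM15 was 0.0255 by limma and rose to 0.0517 without WT E7107 replicate 3.

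At the 3 other pairs named downward, the upstream acceptor was the minor one and was at 0 in all 6 WT E7107 samples. Its WT DMSO range was 4.00% to 20% at FAM118A, 2.83% to 6.19% at PPFIA1, a liprin of focal adhesions, and 0.725% to 2.96% at CDC42SE1, an effector of CDC42. The adjusted p by limma was 0.000129, 2.58e-06 and 0.000438. With every WT E7107 sample at 0, these p-values rest mainly on the spread in WT DMSO. The rule's minimum for the minor acceptor in those DMSO samples favours this direction. The sum in WT E7107 was 12.5% to 50% at FAM118A, 60% to 95% at PPFIA1 and 24% to 50% at CDC42SE1. The number of reads behind these sums is unknown.

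Further pairs of WT cells were chosen after their values were seen, as pairs in which the mean shares in WT DMSO were far from 0% and 100%. CDC25A, a cell cycle phosphatase, had a share of 69.7% ± 4.38 in WT DMSO and of 95.2% ± 11.7 in WT E7107, where 5 samples were at 100% and 1 at 71.4%, while the Y36C groups were at 70.3% ± 4.62 and 69.8% ± 4.82. The adjusted p was 0.00533 by limma, with a mean sum for the pair of only 18.0% in WT E7107. In the 5 samples at 100% the sum was 8.33% to 12.5%. RNF111, a ubiquitin ligase of TGF-beta signalling, went from 82.4% ± 6.85 to 61.7% ± 10.5 (adjusted p = 0.0188, limma), HELZ, an RNA helicase, from 28.4% ± 4.65 to 43.0% ± 7.94 (adjusted p = 0.0294, limma) and AFTPH from 63.8% ± 7.68 to 80.4% ± 8.29 (adjusted p = 0.0374, limma). The HELZ call was lost without WT DMSO replicate 2, 3 or 4 or WT E7107 replicate 2 or 6, with an adjusted p of up to 0.0611. The AFTPH call was lost without any of 9 of the 12 samples, all but WT DMSO replicates 2 and 4 and WT E7107 replicate 1, with an adjusted p of up to 0.0774.

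**Figure D4:**
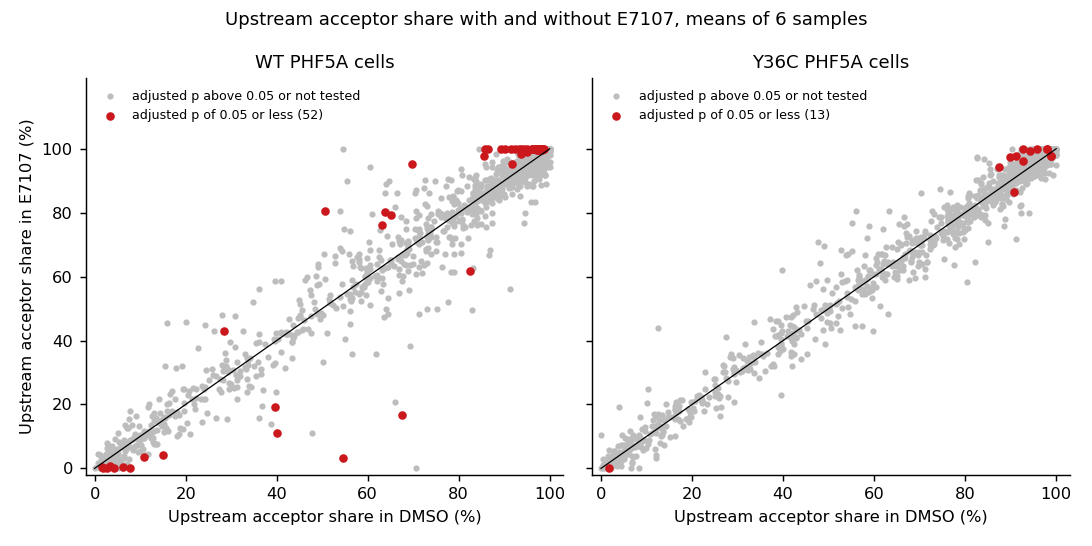
Mean upstream share in E7107 (y axis, %) against DMSO (x axis, %), each point a pair and a mean of 6 samples, for WT and Y36C cells, with the line of equal shares. Red points were called at an adjusted p of 0.05 or less (limma): 52 in WT cells, many of them at exactly 100% or 0% under E7107, and 13 in Y36C cells, which lie closer to the line.

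In Y36C cells, the share was called different between E7107 and DMSO at 13 of 1330 pairs tested, 9 up and 4 down, which is 0.977%. The background over all acceptor pairs was 17.6% (2.23% up and 15.3% down), with 6.82% of pairs 4 to 50 bases apart and 19.4% of those over 50 bases apart. At an unadjusted p under 0.05 there were 77 of the 1330 tandem pairs, beside 10629 of all 37068 acceptor pairs. At 10 of the 13 the minor acceptor had the lower share under E7107, and at 3 the higher. The rule's minimum for the minor acceptor in DMSO fixes this direction in part. Over all acceptor pairs, 3990 of the 6510 called had no overlap between the groups, and so had 113 of the 237 called at 4 to 50 bases apart. Of the 13 tandem pairs, only S100A14, a calcium-binding protein, met that condition. Its upstream share was 1.04% to 4.17% in Y36C DMSO and 0% to 1.02% in Y36C E7107, a difference of 1.51 points with an adjusted p of 0.0121 by limma, and 5 of the 6 treated samples were at 0. The upstream acceptor was the minor one and lay close to the rule's minimum of 1% in DMSO, which favours a fall. The WT groups had 1.69% ± 1.22 and 1.84% ± 1.76. UBR4, a ubiquitin ligase chosen after its values were seen, went from 92.7% ± 1.66 to 96.1% ± 0.979 (adjusted p = 0.0126, limma), with ranges of 90.3% to 95.2% and 94.7% to 97.3% that overlapped.

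Between the genotypes without drug, no tandem pair was called among 1330 tested, against a background of 0.0645% of 37228 pairs, by limma. At an unadjusted p under 0.05 there were 56 of the 1330, beside 3249 of all 37228 acceptor pairs. One pair, METAP2, the enzyme that removes the initiator methionine, was called in 2 of the alternatives. Its upstream share was 77.5%, 80.5%, 77.2%, 80.7%, 80.1% and 76.9% in WT DMSO and 71.3%, 68.3%, 72.3%, 73.8%, 65.4% and 69.4% in Y36C DMSO. Every Y36C sample was below every WT sample, and the exact permutation test of the 2 groups (two-sided, 6 against 6) gave the smallest p it allows, 0.00216, without adjustment over pairs. Any pair whose groups do not overlap reaches that p. The adjusted p was 0.451 by limma on the log odds, 0.0229 by limma on the share in percent and 0.0264 with the spread of the pair taken on its own.

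Under E7107 the genotypes differed at 62 of 1309 pairs tested, 20 with a higher share in Y36C and 42 with a lower one, or 4.74%. The background was 22.1% of all acceptor pairs (6.67% higher and 15.4% lower), 17% of those 4 to 50 bases apart and 23.4% of those over 50. There were 152 of the 1309 tandem pairs at an unadjusted p under 0.05, beside 11720 of all 35858 acceptor pairs. In this comparison only E7107 samples entered, and 28 of the 62 pairs had the minor acceptor at 0 in all 6 WT E7107 samples. With the minor acceptor above 0 in 3 or more samples of each group, a condition chosen after seeing the data, 9 were higher and 8 lower of 874 tested. The comparison shares the 6 WT E7107 samples with the comparison of E7107 and DMSO in WT cells, so both show the values of those samples.

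METAP2 was again lower in Y36C cells, with 76.0% to 80.9% in WT E7107 and 66.2% to 74.4% in Y36C E7107. The difference of the means was -8.43 points, with an adjusted p of 0.00151 by limma, and the boundary PSI was 7.54% ± 1.80 in WT E7107 and 0.348% ± 0.276 in Y36C E7107. Within each genotype no difference with E7107 was called, with means of 78.8% ± 1.80 and 78.5% ± 2.02 in WT and of 70.1% ± 3.02 and 70.0% ± 2.75 in Y36C. SMIM26, a small mitochondrial membrane protein, was at 33.3% to 54.7% in WT E7107 and at 22% to 33.2% in Y36C E7107 (adjusted p = 0.0129, limma), and the DMSO groups were at 32.5% ± 2.79 and 33.7% ± 4.54. WAC, an adaptor of histone H2B ubiquitination, was at 71.0% to 92.6% in WT E7107 and 65.0% to 70.2% in Y36C E7107, with an adjusted p of 0.0388 by limma that rose to as much as 0.0774 without WT E7107 replicate 3 or 6 or without any of the Y36C E7107 samples. TNS4 was at 100% in every WT E7107 sample and at 87.8% to 98.1% in Y36C E7107 (adjusted p = 0.000128, limma).

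CFAP410, a protein of cilia, had the largest difference downward among the called pairs, from 80.5% ± 5.76 in WT E7107 to 50.9% ± 23.0 in Y36C E7107. The samples were at 75% to 87.5% in the first group and at 14.3% to 75% in the second, which met at 75%. Its adjusted p of 0.0426 by limma rose to as much as 0.0876 without any WT E7107 sample or without Y36C E7107 replicate 1, 3 or 5, and the WT DMSO samples alone ran from 30.8% to 82.4%. Upward, of the called pairs whose groups did not overlap and whose sum was 10% or more in every sample, REV1 had 0% to 20% in WT E7107 and 36.8% to 66.7% in Y36C E7107 (adjusted p = 0.000187, limma), and TIMM44 had 0% to 1.28% and 8.0% to 10.7% (adjusted p = 1.25e-05, limma). PPFIA1, CDC42SE1 and ADAM15, named under the same conditions, had differences of 2.42 to 2.96 points. Other called pairs that did not meet both conditions differed by more, such as CIC by 43.0 points (adjusted p = 0.0446, limma). ATRX, a chromatin remodeller and another of these, was at 66.7% ± 11.8 in WT E7107 and 85.1% ± 3.29 in Y36C E7107 (adjusted p = 0.0160, limma). SMG1, a kinase of nonsense-mediated decay, and RNF25, a ubiquitin ligase, both chosen after their values were seen, were lower in WT E7107 with both acceptors seen in every E7107 sample: SMG1 was at 89.1% ± 3.76 against 95.3% ± 1.94 in Y36C E7107 (adjusted p = 0.0177, limma) and RNF25 at 88.3% ± 5.11 against 96.6% ± 1.78 (adjusted p = 0.00822, limma).

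The difference between the genotypes in the effect of E7107, tested as an interaction by limma, was called at 29 of 1307 tandem pairs, 12 with a more positive effect in Y36C and 17 with a more negative one (2.22%). The background was 14% of all acceptor pairs, 4.23% in the positive and 9.74% in the negative direction. Among the called pairs with a sum of 10% or more in every sample, REV1 differed most, by 62.5 points (adjusted p = 2.78e-05), followed upward by ATP8B1, a phospholipid flippase, with 46.5 points (adjusted p = 0.0288) and RNF111 with 21.6 (adjusted p = 0.0285). CFAP410 differed by -40.3 points (adjusted p = 0.0419), KANSL1, a subunit of a histone acetyltransferase complex, by -28.2 (adjusted p = 0.0227) and C19orf47 by -12.1 (adjusted p = 0.0227). CIC, at 46.2 points (adjusted p = 0.0276), and CDC25A, at -26.0 (adjusted p = 0.00104), were also called but had a lower sum in at least 1 sample. At ATP8B1, 4 of the 6 WT E7107 samples were at 0%, and without Y36C DMSO replicate 6 the adjusted p was 0.0536. The RNF111 call was lost without Y36C E7107 replicate 2 or 3, with an adjusted p of up to 0.0529. The CFAP410 call was kept without 9 of the 24 samples and lost without each of the other 15, which were WT DMSO replicates 2, 3, 5 and 6, WT E7107 replicates 2, 4 and 6, all Y36C DMSO replicates but 3 and Y36C E7107 replicates 1, 2 and 3, with an adjusted p of up to 0.0731.

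**Figure D5:**
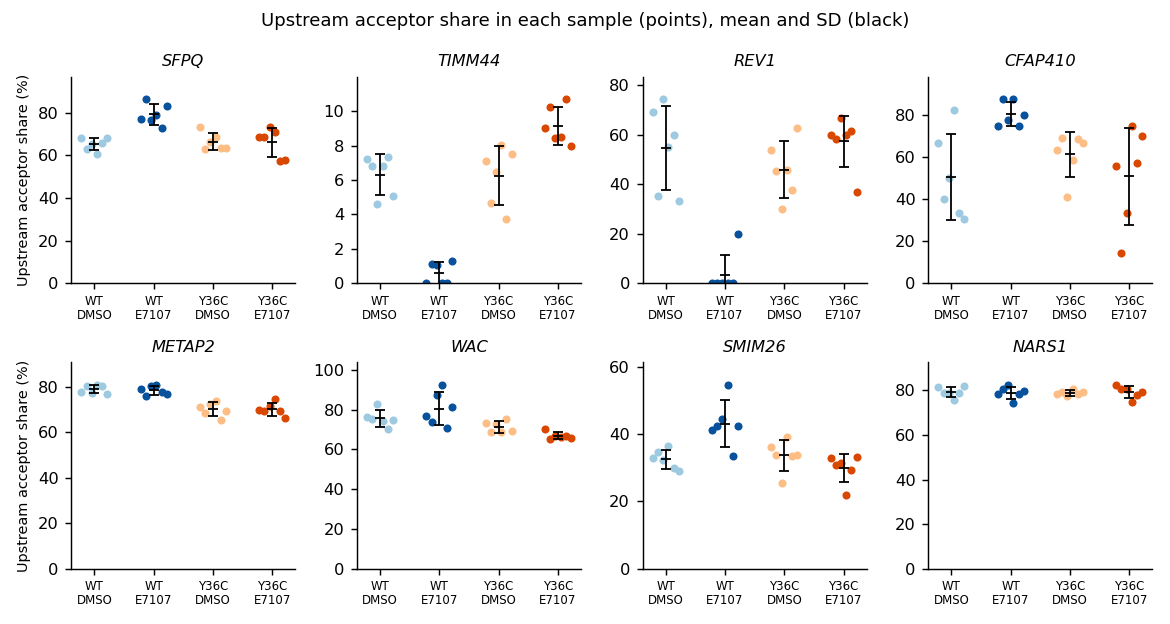
Upstream share (y axis, %, from 0, own scale for each gene) in each sample (points) of the 4 groups at 8 pairs, with the mean and SD (black). SFPQ rises and TIMM44 and REV1 fall in the 6 WT E7107 samples, METAP2 is lower in both Y36C groups with and without E7107, and NARS1 lies between 74.3% and 82.7% in all 24 samples.

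Other pairs had nearly the same mean share in all groups. Of those between 20% and 80% in DMSO with a sum of 10% or more in every sample, the 3 steadiest were NUSAP1, NARS1 and FDXR. NUSAP1, a spindle protein whose intron is also annotated to ENSG00000285920, had means of 51.7% with DMSO and 52.1% with E7107 in WT cells and of 51.7% and 51.5% in Y36C cells. NARS1, the cytosolic asparaginyl-tRNA synthetase, had 79.4%, 79.0%, 78.8% and 79.3% in the same order, and FDXR, the mitochondrial ferredoxin reductase, 21.4%, 21.6%, 22.1% and 22.2%. The pairs closest to even use in DMSO were EWSR1, an RNA-binding protein of the FET family, with 50.1% ± 3.10 in WT DMSO and 48.0% ± 3.39 in WT E7107, DPP3, a dipeptidyl peptidase, with 49.6% ± 11.2 and 46.6% ± 10.7, HR, a nuclear corepressor, with 56.6% ± 7.73 and 35.8% ± 26.5, and ADAMTSL5 with 46.2% ± 7.21 and 58.8% ± 12.5. None of the 4 was called in any comparison.

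Of 7 genes known for tandem acceptors, 4 held a member, with 6 pairs in all, and none of the 6 was called in any of the 5 comparisons. ATN1, a transcriptional corepressor, had 97.6% ± 0.682 in WT DMSO and 97.4% ± 2.00 in WT E7107. The growth factor receptor IGF1R had 68.8% ± 13.4 and 71.1% ± 25.5, and ING4, a reader of histone H3, 38.8% ± 20.4 and 13.9% ± 22.2. The 3 pairs of BRCA1, a DNA repair factor, had DMSO means of 73.2%, 94.0% and 75.5% in WT cells and means of 78.5%, 95.6% and 79.5% under E7107.

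Genes of splicing and RNA-binding proteins held 45 pairs in 34 genes, with a median DMSO share of 83.8%. SFPQ is not in this list. In WT cells 0 of 42 tested were higher under E7107 and 1 was lower, in Y36C cells 0 of 45 passed the test in either direction, and between the genotypes under E7107 2 were lower in Y36C, CELF1 (exon 7) and DDX5, and 0 higher (limma). The median difference in WT was -0.0140 points, against 0.0861 over all tandem pairs. The pair lowered in WT was PRPF40B, a U1 snRNP-associated protein, from 39.7% ± 9.09 to 19.3% ± 9.97 (adjusted p = 0.0378), a call that was kept only without WT DMSO replicate 6 or WT E7107 replicate 2 or 6 and otherwise reached an adjusted p of up to 0.0786. ACIN1, a protein of the exon junction complex, had 74.0% ± 2.52 and 75.5% ± 3.47, and CELF1, an RNA-binding regulator of splicing, 45.6% ± 4.82 and 49.5% ± 10.2 at exon 12 and 98.1% ± 1.05 and 99.5% ± 1.32 at exon 7. The splicing kinase CLK2 had 72.8% ± 3.77 and 68.7% ± 13.4 at exon 3. At exon 4 of CLK2 the boundary PSI was 95.9% ± 1.79 in WT E7107, which left a mean sum of 0.463% for the pair and a share in a single sample, and CLK4 had 97.3% ± 2.15 in WT DMSO. At the 5′ splice sites of this list, 35 of 40 boundaries that passed the filter were lower and 2 higher in Y36C than in WT cells under E7107, beside 484 and 90 of 734 over all member sites.

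Chromatin regulators held 46 pairs in 33 genes, with a median DMSO share of 82.8%. MYSM1, KANSL1, BRPF1 and WAC, described above, are not in this list. One of 46 was called in WT cells, SETDB1, a histone H3 methyltransferase, whose share went from 97.2% ± 2.21 to 100% in all 6 samples (adjusted p = 0.0191, limma), and 0 of 46 in Y36C cells. Between the genotypes under E7107, 1 was higher in Y36C, ATRX, and 2 were lower, ARID1B and HDAC5. ARID1A, a subunit of the BAF remodelling complex, had a share of 1.95% ± 0.611 in WT DMSO and 1.11% ± 2.72 in WT E7107 at exon 6 and of 49.3% ± 5.19 and 57.5% ± 19.1 at exon 14, both with the sequence GAGCAG. ARID1B went from 98.0% ± 2.04 to 100% in all samples. ATRX had 86.7% ± 12 and 66.7% ± 11.8. BPTF, a subunit of the NURF remodelling complex, had 94.4% ± 2.71 and 76.8% ± 25.1 at exon 2 and 97.2% ± 3.34 and 97.6% ± 5.83 at exon 7. The boundary was lower in Y36C at 8 of the 14 sites that passed the filter and higher at 1, again beside 484 and 90 of 734.

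Of the pairs nearest the selection limits, STK36 and CLK2 entered with mean DMSO sums of 50.1%, and 2 pairs stayed out at 49.7% and 49.8%. ZNF777 and RNF6 entered with a minor acceptor at 1.00% and 1.01%, and 2 pairs stayed out at 0.995% and 0.997%.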

How the data were processed

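Reads were aligned by the authors to hg19 with STAR, and the deposited values are percentages: the percent of reads at a splice site that belong to a junction or to the exon–intron boundary. Of 1830076 rows, 6433 were left out as mitochondrial or without a strand. Sequences came from GRCh37 and genes from GENCODE lifted to it. Members and gene lists were chosen with earlier results of these data known.

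The upstream share was tested with limma 3.58.1 (R 4.3.3) on ln((share + 1)/(101 − share)) over all acceptor pairs with a sum above 0 in every sample compared, with Benjamini-Hochberg adjustment over all of them. Boundary PSI was tested in the same way over 367408 rows. No sample was left out. Calls were made at an adjusted p of 0.05 or less.

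Genes were named by rule: the 5 (interaction and DMSO comparison: 3) largest differences each way among called pairs with non-overlapping groups (interaction: no such condition) and a sum of 10% or more in every sample compared, the 4 nearest to 50%, the 3 steadiest, the 3 largest boundary differences each way, and members of 3 gene lists (up to 6 each, and any called in either genotype). Others are said to be chosen after their values were seen. Scripts were tested on simulated data, where most pairs given a known shift in the WT comparison were not called. A pair that was not called may therefore still differ. Alternatives are listed in the closing section. An exact permutation p was computed for each named pair with a sum above 0 in every sample and is printed for METAP2 only. Samples with the same replicate number did not deviate together (lowest correlation -0.0969, highest 0.141), so numbers were not taken as pairs.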

Additional observations from a re-analysis of the deposited data

Results flagged for a closer look

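In 29 of 258 groups of 6 samples 1 sample stood far from the others by Dixon's criterion, where chance gives about 1 in 20. In WT DMSO the mean pair sum of 1 sample was 92.9%. For the upstream share in WT DMSO, the sample was at 20% for FAM118A, 60% for ADAMTSL5 and 4.17% for S100A14. In WT E7107 it was at 85.7% for BPTF (exon 7), 6.67% for ARID1A (exon 6), 96.8% for CELF1 (exon 7), 78.6% for BRCA1 (exon 12), 85.7% for C19orf47, 20% for REV1 and 71.4% for CDC25A. In Y36C DMSO it was at 83.3% for C19orf47, 4.17% for S100A14 and 41.2% for CFAP410. In Y36C E7107 it was at 70.2% for WAC, 0% for IGF1R, 47.1% for CIC, 93.9% for SETDB1, 3.57% for ARID1A (exon 6), 22% for SMIM26, 1.02% for S100A14, 36.8% for REV1 and 79.2% for CDC25A. For the boundary PSI, it was at 75% for LAT, 50% for ENSG00000256673 and 22.2% for ENSG00000285725 in WT E7107, at 36% for ENSG00000285725 in WT DMSO, at 66.7% for ENSG00000256673 in Y36C DMSO and at 10% for PPAN in Y36C E7107.

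The effect of E7107 on the upstream share differed between the genotypes at 16 named pairs by the interaction term in limma. As the effect in Y36C minus that in WT, it was 62.5 points at REV1, 46.5 at ATP8B1, 46.2 at CIC, 21.6 at RNF111, 9.43 at RNF25, 8.62 at TIMM44, 2.93 at CDC42SE1 and 2.49 at PPFIA1. It was -40.3 points at CFAP410, -28.2 at KANSL1, -26.0 at CDC25A, -12.1 at C19orf47, -6.50 at TNS4, -5.88 at SCAF4, -3.81 at ARID1B and -3.35 at CELF1 (exon 7).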

How the results depend on the processing

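Alternatives on the scale, the filters, the adjustment and the choice of members were fixed together with the tests, and those requiring the minor acceptor above 0 or taking the spread of each pair on its own were chosen after seeing the data. None reversed a direction: of 1601 repeats of the 65 named results, 1371 kept their call and 230 lost it. In WT cells the 38 pairs higher under E7107 became 17 on the share in percent, 17 with a minimum difference of 5 points and 5 with the minor acceptor above 0, and the 14 lower became 9, 9 and 5. In Y36C cells the 9 higher became 5 with an offset of 0.1 point, 4 over pairs 3 to 50 bases apart only and 5 with the minimum difference, and the 4 lower became 1 over pairs 3 to 50 bases apart, 0 with the minimum difference and 1 with the minor acceptor above 0. Between genotypes under E7107 the 20 higher became 12 with the minimum difference and 9 with the minor acceptor above 0, and the 42 lower became 19 in percent, 26 over pairs 3 to 50 bases apart, 22 and 8. In DMSO the 0 lower became 1 in percent and 1 with each pair's own spread. For the interaction, 12 and 17 became 6 and 9 in percent, 7 and 10 over pairs 3 to 50 bases apart, and 4 and 6 with the minor acceptor above 0. The 90 boundaries higher in Y36C became 48 with a minimum difference of 10 points. The cause was not tested where fewer pairs or a stricter condition does not itself give it.

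With the replicate number as a block, the WT counts became 18 higher and 7 lower, the Y36C counts 6 and 1, and those between genotypes under E7107 16 and 25. The numbers do not pair the samples: 0 to 2 of 6 correlated best with their own number.

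Leaving out each sample in turn gave 36 to 49 higher and 10 to 20 lower in WT cells, 5 to 14 and 1 to 7 in Y36C cells, 16 to 26 and 30 to 45 between genotypes under E7107, 0 in DMSO, and 10 to 16 and 12 to 24 for the interaction. In Y36C cells the 9 higher became 5 without DMSO replicate 2 and 14 without E7107 replicate 1. The 4 lower became 1 without DMSO replicate 1, 2 without DMSO replicate 5 or E7107 replicate 1, 3 or 6, and 7 without E7107 replicate 5. Without read counts, the precision of a single share is unknown.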
